A study of Homo sapiens and Mus musculus with 100 samples.

Results

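The genes of the cytosolic ribosomal proteins were followed through a study of vitamin B2 (riboflavin) deprivation in human cell lines, mouse hepatocytes and mouse liver. Members were taken by symbol among protein-coding entries: RPL or RPS followed by a number (with an optional A, X or L and a further number), plus RPLP0, RPLP1, RPLP2 and RPSA. This gave 84 of 28035 listed genes in each of the 6 human tables and 84 of 24940 in the 2 mouse tables, with 82 symbols shared between the species. The 84 human members comprised 43 large-subunit genes, 31 small-subunit genes, 3 stalk genes and 7 paralogs. The symbols RPL26L1 and RPS3A occurred only in the human set, Rpl32l and Rps3a1 only in the mouse set. Species were matched by symbol and not by orthology, so a gene named otherwise in the other species is left unmatched. Ribosomal proteins with other kinds of name, such as FAU, RACK1 and RPL36AL, fell outside the rule.

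The cytosolic ribosome is built from ribosomal RNA and many small, mostly basic proteins, assembled in the nucleolus and cytoplasm into a small subunit, which decodes the message, and a large subunit, which forms the peptide bond. The mRNAs of these proteins usually begin with a C followed by a stretch of pyrimidines, the 5′ terminal oligopyrimidine (TOP) motif, through which the kinase complex mTORC1 and the RNA-binding protein LARP1 govern their translation and stability. Hepatocytes spend much of this capacity on secreted plasma proteins, and the proteins that remain unassembled, above all RPL5 and RPL11, are known to bind MDM2 and stabilise p53.

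The study set cells or mice kept without vitamin B2 against controls and asked what part AhR, a transcription factor switched on by ligands (aryl hydrocarbon receptor), has in the response. HepG2, a hepatoblastoma-derived liver line, was sampled without vitamin B2 and in control medium at days 3, 6, 9 and 12. Day 12 was repeated in further experiments, deprived and control, each without and with an agent labelled AhRinh, without and with an agent labelled IDO_TDOinh, and in cells carrying the guide AhR_gRNA or Cont_gRNA. The file headers name the guide experiment as a whole AhR_KO, Cont_gRNA libraries included. In another experiment HepG2 received Kyn or DMSO, each with and without AhRinh, at day 12. Caco-2, a colon carcinoma line, was sampled deprived and control at day 9. AhR_flox mouse hepatocytes, so all with the floxed allele, were labelled 4 weeks without or with vitamin B2 and given Ad_Cre or Ad_Cont, and liver came from mice labelled 4 weeks of deficiency or control. AhRinh was at 10 µM in the deprivation experiment, per the file headers. Other doses, the identity of the inhibitors, guide sites, the floxed exon, the genotype, age and strain of the liver mice, and whether guide-bearing cells were 1 clone were not given in the sources used here. Groups held 3 libraries, except the liver groups with 4 columns each, and nothing says that replicates came from separate cultures, so p-values measure the spread between these libraries, which may be technical.

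Values are deposited TPM from a 3′ end kit, so a member can be compared between libraries of its table but not in level with another member. Reads recovered from the TPM per library ranged between 4049566 and 19427922 in the human tables and between 6263488 and 19644003 in the mouse tables. Each table was tested alone with limma on log2(TPM + 1) over all genes that passed a filter (TPM of at least 1 in 3 libraries, or 4 in liver), with Benjamini-Hochberg adjustment and a threshold of 0.05. 81 or 82 of the 84 members passed in every table, while the muscle and testis paralogs RPL3L and RPL10L failed it in all human tables. In deprived cells AHR stood at 7.94, 8.09 and 7.06 TPM with AhR_gRNA and at 8.26, 6.09 and 6.07 TPM with Cont_gRNA, and in control medium at 4.48, 4.76 and 4.88 TPM with AhR_gRNA and 4.54, 4.37 and 6.51 TPM with Cont_gRNA, so the guides overlap, though a 3′ tag need not lie near a guide site. In mouse hepatocytes without vitamin B2 Ahr stood at 6.78, 6.99 and 7.52 TPM with Ad_Cre and 10.7, 10.1 and 9.89 TPM with Ad_Cont, and with the vitamin at 7.13, 8.29 and 7.94 TPM with Ad_Cre and 10.0, 9.58 and 9.32 TPM with Ad_Cont, lower with Ad_Cre in every library. A list of 5 hepatocyte markers fixed for HepG2 was detected in full, and its summed level moved with deprivation: 5691 to 6045 TPM in deprived cells and 19911 to 21225 TPM in controls at day 12 of the time course. Its part in the results below was not tested. A list of 4 endothelial markers summed to at most 0.457 TPM in the same libraries.

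Near-identical copies may limit what these values can show for some members. GENCODE release 29 lists 1133 pseudogenes named after the 77 members that are not paralogs, and reads that match a gene and its copies equally well may be lost or split. Across the 77 genes, the number of named copies and the recovered reads had a Spearman rho of -0.39 in day 12 controls, a description across genes that share the same libraries. The 11 genes with fewer than 200 reads per library had a median of 19 named copies, against 8 for the other genes. Among them were RPS10, RPL17, RPS3A, RPS28, RPL10, RPL9, RPL36A, RPS26, RPL21 and RPL7. RPL21, with 66 named copies, had 26.3 reads and RPL7, with 61, had 11.7 reads on average, so values of these 11 genes are uncertain. RPL21 is also listed on the minus strand, whereas its annotated start in RefSeq lies on the plus strand. What this does to its reads was not tested. Of the paralogs, which are not among the 11, RPL26L1 had 119 reads and RPL39L 44.7, so these are low-read genes too. RPS29 has 32 named copies and still had 46419 reads. RPS28, with 3 named copies, had 95.7 reads on average in these controls and 914 in Caco-2 controls. Whether copies lower the reads of a member was not tested.

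Members took up 0.72% to 9.02% of the reads of a group, and in this share the deprived and control groups of a table differed by less than 1 percentage point. In the time course the share was 3.95% ± 0.10 in deprived and 3.84% ± 0.06 in control cells at day 3 (SD, n = 3 in each group of the time course). It was 4.64% ± 0.16 in deprived and 4.19% ± 0.05 in control cells at day 6, and 5.41% ± 0.04 in deprived and 5.29% ± 0.12 in control cells at day 9. At day 12 it was 5.80% ± 0.06 in deprived and 5.45% ± 0.24 in control cells. Its group mean was higher at each later day in both media, and deprived libraries lay above all controls at days 6 and 12 and overlapped them at days 3 and 9. In the other day 12 experiments it was 5.46% ± 0.06 in deprived and 6.06% ± 0.34 in control cells of the AhRinh table. It was 7.27% ± 0.23 in deprived and 7.49% ± 0.64 in control cells of the IDO_TDOinh table, and 6.39% ± 0.20 in deprived and 5.96% ± 0.05 in control cells with Cont_gRNA. Deprived libraries thus lay below the controls in the AhRinh table, overlapped them in the IDO_TDOinh table and lay above them with Cont_gRNA. Kyn-treated cells had 7.03% ± 0.16 and DMSO-treated cells 7.64% ± 0.11, without overlap. Caco-2 had 8.21% ± 0.24 in deprived and 9.02% ± 0.60 in control cells, mouse hepatocytes with Ad_Cont had 1.41% ± 0.12 in deprived and 1.35% ± 0.07 in control cells (SD, n = 3 each). Liver had 0.79% ± 0.10 in deficient and 0.72% ± 0.05 in control mice (SD, n = 4 each). On the TPM scale of the tests below, the members' share of listed TPM gave another picture in some comparisons. It was 14.9% ± 0.27 in deprived and 15.5% ± 0.54 in control cells at day 9, 16.3% ± 0.18 in deprived and 16.2% ± 0.35 in control cells at day 12, and 17.4% ± 0.32 in deprived and 17.5% ± 0.10 in control cells with Cont_gRNA (SD, n = 3 each). The libraries overlap in each of these. Deprived libraries were higher without overlap at days 3 and 6 and lower without overlap in the AhRinh and IDO_TDOinh tables, at 15.9% ± 0.06 against 17.6% ± 0.74 and 19.9% ± 0.39 against 21.2% ± 0.72 in controls. Either share depends on every other transcript. In the AhRinh table the 10 most abundant transcripts, members included, held 13.9% of listed TPM in deprived and 20.9% in control cells. RPS29, a member, ranked between 4 and 6 in these libraries, so its own fall is part of that difference. In whole cultures, fewer cells of a type and less RNA per cell cannot be told apart.

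**Figure D1:**
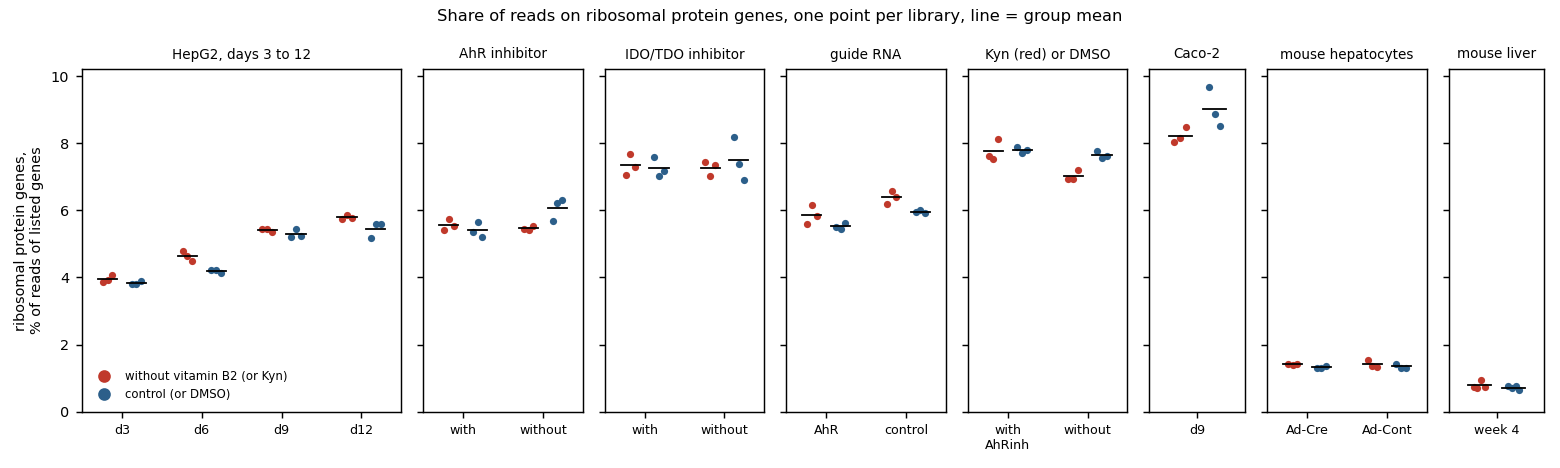
Percentage of recovered reads that fell on the ribosomal protein genes, 1 point per library, by group within each table. In the time course the group means lie between 3.84% and 5.80% and are higher at each later day in both media, while deprived and control groups of a table differ by less than 1 percentage point.

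In control medium most members were higher at day 12 than at day 3. Of 82 members tested, 61 were higher and 6 lower at day 12 than at day 3, against 20.1% and 46.8% of all genes tested, and the median log2 fold change was 0.48 for members and -0.21 for all genes. The split was 57 to 6 after quantile normalization and 70 to 2 after scaling every library to the same median. RPL23, a large-subunit protein that can also bind MDM2, had 1880.3, 2026 and 1915 TPM at day 12 against 815, 858 and 836 at day 3, a log2 fold change of 1.21 ± 0.04 (SE, adjusted p = 2.52e-16). RPL5, a partner of the 5S rRNA, rose by 1.05 ± 0.06 and RPL15, a large-subunit core protein, by 1.04 ± 0.07. RPL31 and RPL39, which sit at the exit of the peptide tunnel, rose by 0.98 ± 0.07 and 0.97 ± 0.06. The exceptions were the paralogs RPL26L1 (-0.80 ± 0.12, low-read) and RPL22L1 (-0.40 ± 0.09), the low-read genes RPS26 (-0.71 ± 0.20) and RPL10 (-0.30 ± 0.12). The others were the peptide gene RPL41 (-0.31 ± 0.09) and RPL3 (-0.28 ± 0.09), which lines the peptidyl transferase centre. The 3 stalk genes, whose proteins recruit the elongation factors, rose as well: RPLP0 by 0.57, RPLP1 by 0.67 and RPLP2 by 0.38. After quantile normalization, however, RPLP1 and RPLP2 stood at -0.01 and -0.24.

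Without vitamin B2 most members also rose over these days, with 59 members higher and 2 lower at day 12 than at day 3, against 14.4% and 35.3% of all genes, and a median of 0.45 for members and -0.12 for all genes. Scaling to the median gave 67 and 0, quantile normalization 58 and 4. Among the largest rises past the threshold were RPS18 (1.06 ± 0.09), RPL23 (1.01 ± 0.04), the testis-enriched, low-read paralog RPL39L (0.93 ± 0.25) and RPL12 (0.92 ± 0.09). RPL22L1 fell by 0.34 ± 0.09 and RPL13A by 0.21 ± 0.05, the second of which was 0.02 with voom on recovered reads. The test of the difference between the time effects with and without the vitamin called 8 members positive (a larger rise in deprived cells) and 15 negative, against 23.8% and 13.9% of all genes. It called 14 and 21 after quantile normalization and 7 and 22 after median scaling. It was negative for RPL13A (-0.73 ± 0.07, adjusted p = 5.90e-08), RPS29 (-0.69 ± 0.07), RPL15 (-0.45 ± 0.10), RPL5 (-0.41 ± 0.08) and RPL27A (-0.40 ± 0.08). Among those with a positive difference were RPL26L1 (0.83 ± 0.16), RPL17 (0.60 ± 0.19), RPS18 (0.53 ± 0.12) and RPL12 (0.51 ± 0.12).

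Set against controls of the same day, deprived HepG2 cells had many members raised at day 6 and members split between higher and lower at days 9 and 12. At day 3, 1 of 82 members was higher and 1 lower, against 2.74% and 2% of all genes: RPL13A rose by 0.20 ± 0.05 and RPL17, a gene with under 200 reads, fell by 0.52 ± 0.13. Quantile normalization called 4 higher and 1 lower and median scaling 0 and 1. Without control replicate 1 there was 1 call, and without control replicate 2 or deprived replicate 1 or 3 there were 0. At day 6, 33 members were higher and 3 lower, against 19% and 14%, and the median was 0.13 for members and 0.03 for all genes. The rise covered 20 of 43 large-subunit genes, 10 of 31 small-subunit genes and 2 of 3 stalk genes. RPL13, a large-subunit protein, had 214, 207 and 209 TPM in deprived and 144, 144 and 149.7 in control cells, a log2 fold change of 0.52 ± 0.05 (SE, adjusted p = 2.67e-08), without overlap of the groups. RPS18 of the small-subunit head rose by 0.62 ± 0.09, RPL29 by 0.52 ± 0.07, RPL7A by 0.50 ± 0.10, RPL3 by 0.43 ± 0.09 and the low-read RPL9 by 0.45 ± 0.15 (RPL29, RPL7A, RPL3 and RPL9 belong to the large subunit). RPS27L, a paralog of RPS27 known as a p53 target, went the other way, with 467, 459 and 398 TPM in deprived and 725, 987 and 757 in control cells. Its log2 fold change was -0.89 ± 0.14 (SE, adjusted p = 6.37e-05). Its groups did not overlap, and its parent gene RPS27 did not pass the threshold. RPL11 and RPL5 were higher at this day, by 0.21 ± 0.06 and 0.15 ± 0.06, the second not past the threshold after quantile normalization or median scaling. RPS29 and RPS21, both of the small subunit, fell by 0.16 ± 0.05 and 0.21 ± 0.06, the second of which was 0.04 after quantile normalization.

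At day 9 the direction was mixed, with 16 members higher and 25 lower against 29.4% and 19.7% of all genes. The median was -0.10 for members and 0.06 for all genes, and the split was 22 to 23 after quantile normalization and 11 to 33 after median scaling. RPL13A, a large-subunit protein also known from a translational inhibitor complex of monocytes, had 207.4, 216.3 and 223.2 TPM in deprived and 343, 349 and 331 in control cells, a log2 fold change of -0.66 ± 0.05 (SE, adjusted p = 5.20e-10). RPS23, at the decoding centre, fell by 0.65 ± 0.10, RPS27L by 0.57 ± 0.14 and RPS15A by 0.45 ± 0.06. RPS29 fell by 0.47 ± 0.05 but stood at 0.04 after quantile normalization. RPS26 rose by 0.67 ± 0.20 (under 200 reads), and RPL26L1 by 0.57 ± 0.12. RPL12, at the base of the stalk, rose by 0.54 ± 0.09, RPL41 by 0.43 ± 0.09 and RPL35, near the tunnel exit, by 0.42 ± 0.09. RPS6, the S6 kinase substrate, fell by 0.10 ± 0.03 and stood at 0.11 after quantile normalization.

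At day 12 the members were again split: 19 were higher and 16 lower in deprived than in control cells, against 34% and 18.4% of all genes, with medians of -0.02 for members and 0.10 for all genes. The split depended on scaling, at 27 to 22 after quantile normalization, 8 to 26 after median scaling and 6 to 38 with voom on recovered reads. RPS29, a zinc-binding protein of the small-subunit head, had 6352, 6682 and 6563 TPM in deprived and 9651, 10859 and 10788 in control cells, a log2 fold change of -0.67 ± 0.05 (SE, adjusted p = 3.65e-10). After quantile normalization it stood at -0.04, past no threshold. At day 3 the same gene had 5399.8, 5546 and 5601 TPM in deprived and 5298, 5415 and 5640.4 in control cells, where the groups overlap, whereas at day 12 every deprived library lay below every control. RPL13A had 215, 209 and 216 TPM in deprived and 319, 292 and 318 in control cells at day 12, a log2 fold change of -0.53 ± 0.05 (SE, adjusted p = 1.13e-08). RPL26L1, a low-read paralog of RPL26, had 19.4, 20.8 and 18.4 TPM in deprived and 11.0, 11.4 and 12.1 in control cells, a log2 fold change of 0.71 ± 0.12 (adjusted p = 1.99e-05), and its parent RPL26 rose by 0.24 ± 0.05. RPL12 had 157, 146 and 141 TPM in deprived and 101, 103 and 102 in control cells, a log2 fold change of 0.54 ± 0.09 (adjusted p = 1.60e-05). Both rose without overlap of the groups. RPS12 (0.52 ± 0.06) of the small-subunit beak and RPS18 (0.43 ± 0.09) also rose. RPS15A (-0.40 ± 0.06), RPS7 (-0.40 ± 0.07) and RPL15 (-0.35 ± 0.07) fell. Without control replicate 1 the calls were 15 higher and 17 lower, and without deprived replicate 3 they were 14 and 15.

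**Figure D2:**
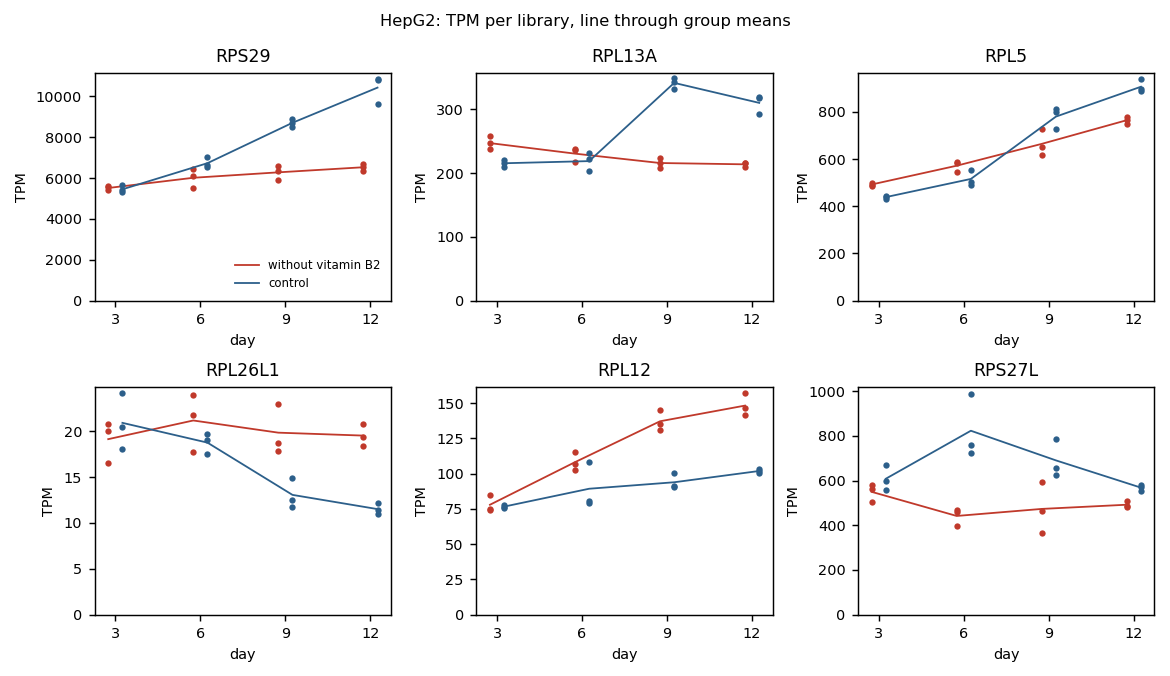
TPM of RPS29, RPL13A, RPL5, RPL26L1, RPL12 and RPS27L in HepG2 at days 3, 6, 9 and 12, with 1 point per library and a line through the means of 3 deprived or 3 control libraries. RPS29 and RPL13A are lower in deprived cells at days 9 and 12, with deprived cells at 6352 to 6682 TPM of RPS29 at day 12, below all controls. RPS29 already had a log2 fold change of -0.16 at day 6, and RPS27L is lowest against its controls at day 6.

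The day 12 comparison was made in 4 experiments with libraries of their own: the time course and the groups without agent, or with Cont_gRNA, of 3 further tables. Of 81 members tested in all 4, 6 were called higher in each (7.41%, against 25.9% of all genes tested in all 4) and 11 were called lower in each (13.6%, against 7.95%). The higher ones were RPL26L1, RPL12, RPL41, RPS18, RPL7L1 and RPS2, and the lower ones RPS29, RPS7, RPL13A, RPL27A, RPS15A, RPL11, RPL35A, RPL15, RPS16, RPL5 and RPS3. All 11 lower members were also called lower in each after median scaling and with voom. Both settings bring the libraries to a common median. The median of all genes was positive in each experiment, so both shift fold changes down and favour lower calls. They are thus not separate checks of the falls. Of the 6 higher ones RPL26L1 alone was called higher in each under those settings. Quantile normalization kept 2 of the 6, RPL26L1 and RPL12, and 6 of the 11, without RPS29, RPL35A, RPL5, RPS16 and RPS3, and turned RPS16 positive in 3 experiments and RPS3 in 1. A further 2 members were called higher in 1 experiment and lower in another, and 13 were called in none. Between pairs of experiments the log2 fold changes of the members had Spearman correlations of 0.66 to 0.87 over 81 or 82 members, and those of all genes 0.67 to 0.83, a description across genes that share libraries.

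The members lower in each experiment came from both subunits, as did those higher in each. RPL13A had a median log2 fold change over the 4 experiments of -0.54 (-0.75 to -0.53), where the bounds in parentheses are the lowest and the highest experiment. RPL27A, a large-subunit protein, stood at -0.52 (-0.62 to -0.35), RPL35A, mutated in some families with Diamond-Blackfan anaemia, at -0.33 (-0.45 to -0.25) and RPL15 at -0.33 (-0.38 to -0.30). RPL11 and RPL5, which with the 5S rRNA form the particle that binds MDM2, stood at -0.38 (-0.50 to -0.30) and -0.23 (-0.34 to -0.20). Among small-subunit members RPS29 stood at -0.67 (-0.82 to -0.48), RPS7, another protein known to bind MDM2, at -0.54 (-0.61 to -0.40), and RPS15A at -0.40 (-0.58 to -0.39). RPS16, of the small-subunit head, stood at -0.28 (-0.35 to -0.12) and RPS3, at the mRNA entry channel, at -0.21 (-0.33 to -0.12). The higher members were RPL12 at 0.55 (0.43 to 0.71), RPL41, the smallest protein of the ribosome, at 0.53 (0.37 to 0.95), and RPS18 at 0.46 (0.29 to 0.58). RPL41 had 209 reads on average, at 26.8 TPM, in day 12 controls of the time course, just above the limit of 200. Controls with Cont_gRNA had 11.4, 14.2 and 12.1 TPM of it at lower depth, so RPL41 is a low-read gene there. RPS2, also at the entry channel, stood at 0.44 (0.36 to 0.58), and the paralogs RPL26L1 at 0.89 (0.71 to 1.01) and RPL7L1 at 0.46 (0.23 to 0.58). In day 12 controls of the time course RPL12 had 892 reads on average, RPS18 749, RPS2 459 and RPL7L1 417. The lower members had between 1648 (RPS7) and 46419 (RPS29). RPL12 has 50 named copies, RPS2 20, RPL7L1 12, RPS18 5, RPL41 3 and RPL26L1 0. The lower members range from 2 (RPL27A) to 35 (RPL5). What depth or copies do to these fold changes was not tested. RPS3 and RPS2 lie at the same channel, the first lower and the second higher in each experiment without rescaling.

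**Figure D3:**
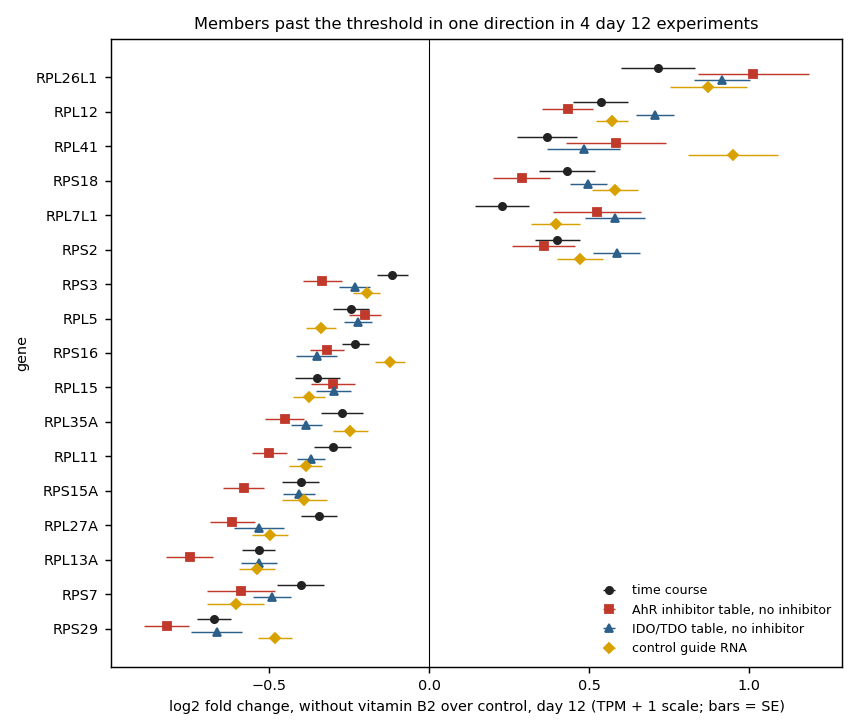
Log2 fold change (deprived over control, log2(TPM + 1) scale) with its standard error at day 12 for the members called in the same direction in each of 4 HepG2 experiments, 1 point per experiment. The 6 higher members lie right of 0, led by RPL26L1 at 0.71 to 1.01, which alone of them kept its 4 calls after median scaling, and the 11 lower ones lie left of 0, with RPS29 lowest in 3 experiments, although quantile normalization ended the call of RPS29, RPL35A, RPL5, RPS16 and RPS3 in at least 1 experiment and turned RPS16 positive in 3 and RPS3 in 1.

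RPS29 and RPL26L1 are given by library for the other 3 experiments. In the AhRinh table RPS29 had 4939, 5669.6 and 5626 TPM in deprived and 9055, 9619 and 9973 TPM in control cells. In the IDO_TDOinh table it had 8902, 7705 and 8463 TPM in deprived and 14779.6, 12636 and 12392 TPM in control cells. With Cont_gRNA it had 6172, 6907 and 6789 TPM in deprived and 9142, 9091 and 9523 TPM in control cells. Every deprived library of RPS29 lay below the controls of its own table. RPS29 ranked between 1 and 6 by TPM in every library of the 4 experiments, and quantile normalization, which gives genes of 1 rank the same value, left it at -0.04, -0.13, -0.11 and -0.07 in the time course, the AhRinh table, the IDO_TDOinh table and with Cont_gRNA, called in none. With voom it stood at -0.81, -1.11, -1.05 and -0.73, called in each. The differences of effects given for RPS29 in the other comparisons were called in none of them after quantile normalization. RPL26L1 had 28.0, 23.5 and 20.2 TPM in deprived and 15.1, 11.0 and 8.49 TPM in control cells of the AhRinh table. It had 17.4, 18.7 and 18.1 TPM in deprived and 9.14, 9.56 and 8.66 TPM in control cells of the IDO_TDOinh table. Deprived cells with Cont_gRNA had 18.9, 15.4 and 21.6 TPM and their controls 8.14, 9.74 and 11.2 TPM. Every deprived library of RPL26L1 lay above the controls of its own table.

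Members outside those lists differed between the experiments. RPL22L1, a paralog of RPL22, stood at -0.09 in the time course, 0.67 in the AhRinh table, 0.61 in the IDO_TDOinh table and 0.34 with Cont_gRNA, and passed the threshold in the last 3. Its parent RPL22 stood at -0.19, -0.21, -0.06 and -0.09 and passed in the time course and the AhRinh table. RPS27L stood at -0.21, -0.37, -0.34 and -0.22, called in all but the time course. Of the stalk, RPLP1 was called higher in the time course (0.13, and -0.01 with voom) and with Cont_gRNA (0.50). RPLP0 was called lower in the AhRinh table (-0.22) and with Cont_gRNA (-0.22), and RPLP2 in the AhRinh table (-0.19, and 0.19 after quantile normalization). RPSA and RPS6 passed in none of the 4, with values between -0.13 and 0.12 for RPSA and between -0.09 and 0.02 for RPS6. The counts of higher and lower members were 10 and 31 of 82 in the AhRinh table (all genes 44.6% and 16.9%), 21 and 25 of 82 in the IDO_TDOinh table (53.6% and 14.3%) and 24 and 22 of 81 with Cont_gRNA (43.6% and 17.1%). After median scaling they were 4 and 60, 5 and 59, and 9 and 43. After quantile normalization they were 20 and 28, 27 and 26, and 28 and 20. The shares of all genes above are those without rescaling, so the rescaled counts show only how the split depends on scaling. The median of all genes was 0.23, 0.30 and 0.20 in these 3 tables, and that of the members -0.13, -0.03 and 0.03. Without deprived replicate 3 the IDO_TDOinh table gave 14 higher and 15 lower, and without deprived replicate 2 it gave 18 and 16.

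**Figure D4:**
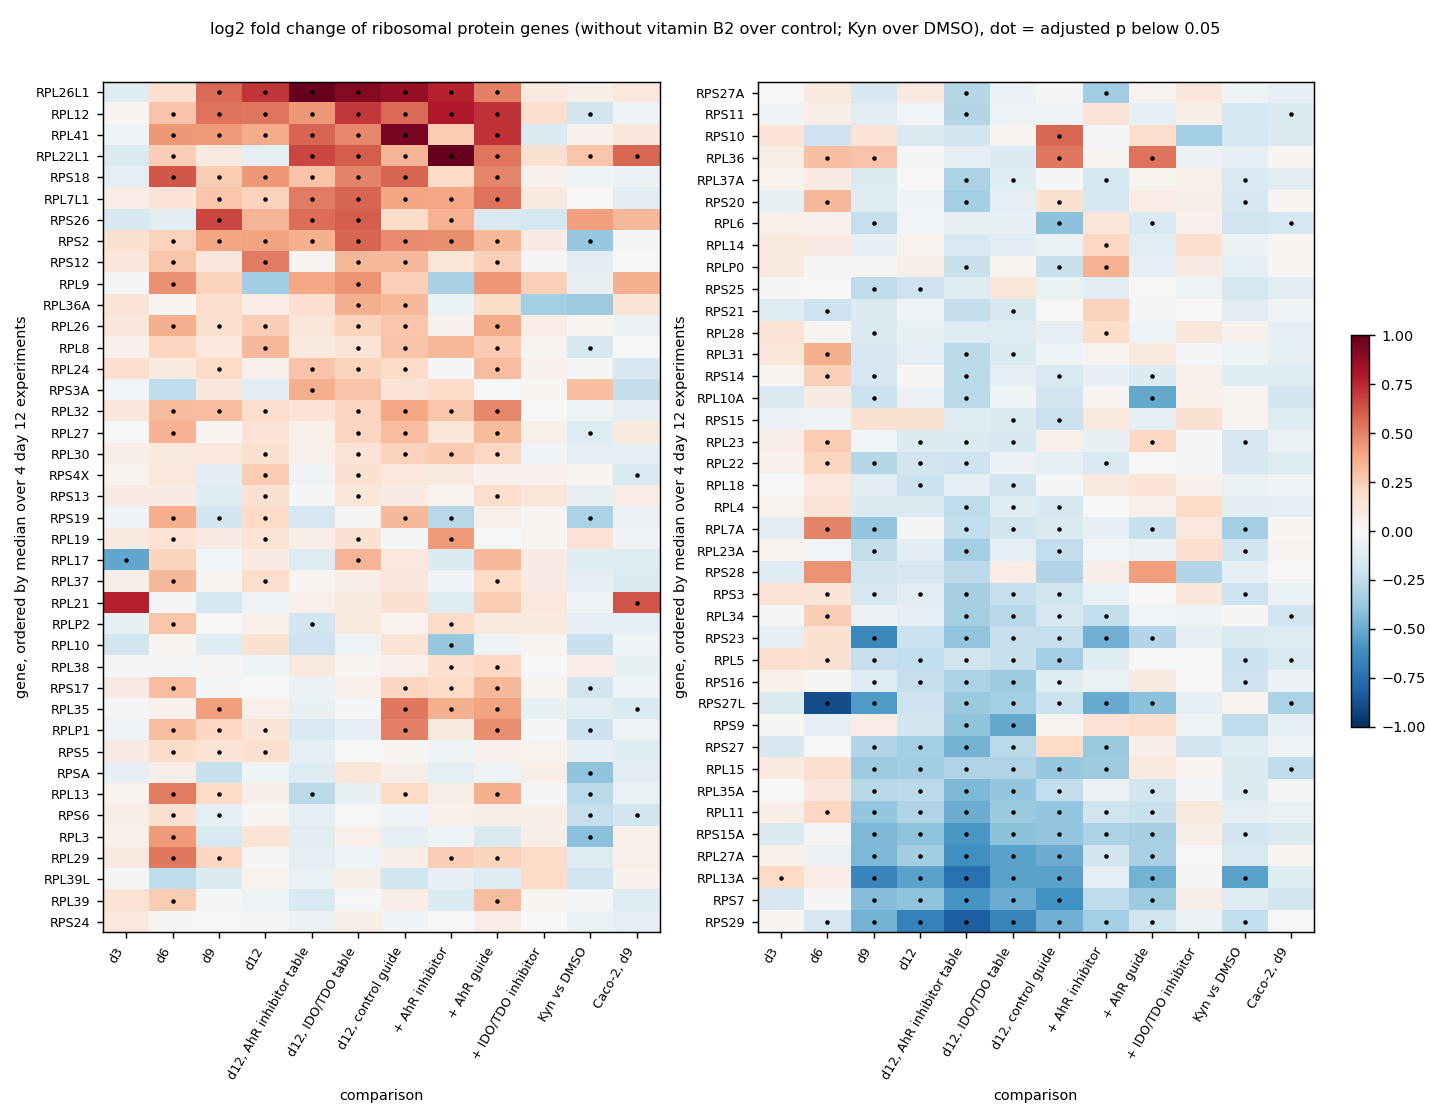
Log2 fold change of members that passed the filter in the 4 day 12 experiments, 1 row per gene ordered by its median over the 4 day 12 experiments, and 1 column per comparison (deprivation in HepG2 and Caco-2, and Kyn), with a dot at an adjusted p below 0.05. The 4 columns of HepG2 day 12 without agent resemble each other, with correlations of 0.66 to 0.87, while the column for deprivation with IDO_TDOinh holds 0 called members.

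The members share a sequence feature at their annotated starts that the choice by symbol did not use. RefSeq promoters (GRCh38.p14) matched 67 members. The windows below run from 20 bases before the annotated start to 10 bases from it on, written on the gene's strand, and capitals mark a run of at least 5 bases that are each C or T and reach within 5 bases of the start. The other strand was not searched. Of the 62 matched members that are not paralogs, 56 (90.3%) had such a run, against 35.6% of 27303 RefSeq promoters. Of them 42 (67.7%) began with C followed by 4 bases that are each C or T, the TOP arrangement (itself part of a run), against 4.04%. The RefSeq start is not always that of the transcript listed in the tables: it lies within 100 bases of it, on the same strand, for 55 of the 67 members, and at -12294 bases, upstream, for RPS29. Within that distance 48 of 51 members that are not paralogs (94.1%) had a run and 36 (70.6%) the TOP arrangement, as did 1 of 4 paralogs. The windows shown are from these 55 members. The first are the 6 of them that were lower in all 4 experiments, among them RPL13A and the 5S partner RPL11:

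RPL13A: ccctgcgacaaaaCCTCCTCCTTTTCCaag
RPS7: ttccggtttccgCCCTCCTCCTCgcgctgt
RPL35A: ccacgcggcggggcctcgTCCTTCTCTTac
RPL11: gagcccgcctcctggcccataaggCCCTCg
RPS16: ccagggtggcccctagCTTTCCTTTTCCgg
RPS3: cttccgcccgcgagccaCTTCCTTTCCTTT

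Next to them stand the 4 of them that were higher in all 4 experiments, and the paralogs RPL22L1 and RPS27L, which were called in some experiments:

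RPL12: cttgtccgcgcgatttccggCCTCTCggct
RPL41: gtagacggaacttcgCCTTTCTCTCggcct
RPS18: gatatcgcgtcacttccgCTCTCTCTTCCa
RPL7L1: cgcgccggaagtgcggcgccgtagctagga
RPL22L1: gaccgcgcggccgtagCTTCCTCTCTgctc
RPS27L: cccggaagttgatgccgagcgcagatcgct

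The windows lie at chr19:49487588-49487617 (RPL13A), chr2:3575240-3575269 (RPS7), chr3:197950170-197950199 (RPL35A), chr1:23691759-23691788 (RPL11), chr11:75399498-75399527 (RPS3), chr12:56116613-56116642 (RPL41), chr6:33272055-33272084 (RPS18) and chr6:42879596-42879625 (RPL7L1) on the plus strand. On the minus strand lie chr19:39435940-39435969 (RPS16), chr9:127451397-127451426 (RPL12), chr3:170870186-170870215 (RPL22L1) and chr15:63157468-63157497 (RPS27L). Each of the 6 windows of lower members holds a run, as do 3 of the 4 of higher members, RPL12, RPL41 and RPS18. RPL7L1 and RPS27L have none, which says only that these letters are absent near the RefSeq start.

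Most ribosome assembly genes were higher in deprived cells at day 12. Of 35 such genes, which act in the nucleolus and in export of the subunits, 21 were higher and 1 lower in the time course and 32 higher and 1 lower in the AhRinh table. They were 33 higher and 2 lower in the IDO_TDOinh table and 30 higher and 2 lower with Cont_gRNA. Among all genes 34%, 44.6%, 53.6% and 43.6% were higher and 18.4%, 16.9%, 14.3% and 17.1% lower in these experiments. The assembly genes had median log2 fold changes of 0.41, 0.83, 0.83 and 0.63, against 0.10, 0.23, 0.30 and 0.20 for all genes, and were positive under each scaling run. RRP9, a U3 snoRNP protein, rose by 0.94, 1.69, 1.51 and 1.53, whereas NOB1, the nuclease that finishes the 18S rRNA, fell by 0.44, 0.36, 0.40 and 0.45. In control medium this list had, at day 12 over day 3, 2 higher and 28 lower, against 20.1% and 46.8% of all genes, and a median of -0.56. The 75 mitochondrial ribosomal protein genes had 45 higher and 5 lower in the time course and 41 higher and 8 lower in the AhRinh table. They had 58 higher and 4 lower in the IDO_TDOinh table and 50 higher and 4 lower with Cont_gRNA. The share higher in the AhRinh table, 54.7%, lies near the 44.6% of all genes, and the median there was 0.24, and -0.03 with voom. MRPS6 was lower in all 4, at -1.28 in the time course. The 18 translation factors and other TOP mRNA genes had 5 higher and 6 lower in the time course and 3 higher and 8 lower in the AhRinh table. They had 5 higher and 7 lower in the IDO_TDOinh table and 4 higher and 8 lower with Cont_gRNA. HNRNPA1, an RNA-binding protein, fell by 0.48, 0.83, 0.63 and 1.10. The elongation factor EEF1A1 fell by 0.62 in the time course, and the initiation factor subunit EIF3H rose by 0.42, 0.50 and 0.50 in the time course and the 2 inhibitor tables. Of 16 mTORC1 and MYC pathway genes 7 higher and 2 lower were called in the time course and 12 higher and 0 lower in each of the other 3, and the 43.8% higher in the time course lies near the 34% of all genes. Among them was the translation repressor EIF4EBP1 (0.57, 1.57, 1.52 and 1.64). After median scaling, in the same order of experiments, the mitochondrial list had 35 higher and 7 lower, 19 higher and 16 lower, 25 higher and 14 lower, and 28 higher and 14 lower. The translation factor list had 3 higher and 10 lower, 1 higher and 11 lower, 1 higher and 13 lower, and 1 higher and 12 lower. The mTORC1 and MYC list had 6 higher and 3 lower, 9 higher and 1 lower, 11 higher and 2 lower, and 9 higher and 3 lower. The shares of all genes above are those without rescaling and are no measure for these rescaled counts.

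With IDO_TDOinh, named for IDO and TDO, the enzymes that open the tryptophan ring, no member passed the threshold between deprived and control cells. The counts were 0 higher and 0 lower of 82 by limma and 0 with voom, against 0.854% and 0.532% of all genes, with 13 members at an unadjusted p under 0.05. RPL26L1 had 9.95, 8.20 and 9.94 TPM in deprived and 7.89, 9.28 and 8.85 in control cells with the agent, which overlap. RPS29 had 11085, 13001 and 11823 TPM in deprived and 13148, 11841 and 12400.2 in control cells with it, a log2 fold change of -0.06 ± 0.08. The test of the difference, deprivation effect with minus without the agent, called 23 members positive and 11 negative, against 12.2% and 41.5% of all genes. Median scaling gave 44 and 1 and quantile normalization 22 and 21; the median of all genes was -0.27 and that of the members 0.06. Of the members called lower without the agent, RPS29 had a positive difference of 0.61 ± 0.11 (SE, adjusted p = 7.23e-04), and RPS7 of 0.56 ± 0.08. It was 0.54 ± 0.08 for RPL13A, 0.54 ± 0.11 for RPL27A, 0.47 ± 0.07 for RPS15A, 0.47 ± 0.06 for RPL11 and 0.22 ± 0.06 for RPL5. Of those called higher without it, RPL26L1 had a negative difference of -0.82 ± 0.12 (SE, adjusted p = 4.91e-05), and the low-read RPS26 and RPL36A of -0.78 ± 0.26 and -0.71 ± 0.19. It was -0.63 ± 0.16 for RPL41, -0.54 ± 0.08 for RPL12, -0.49 ± 0.13 for RPL7L1 and -0.45 ± 0.11 for RPL22L1. Across 82 members the effects with and without the agent had a Spearman correlation of 0.20, against -0.02 over all genes. In control medium the agent itself called 0 members by limma and 0 with voom (all genes 0.00872% and 0%), with 2 at an unadjusted p under 0.05.

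**Figure D5:**
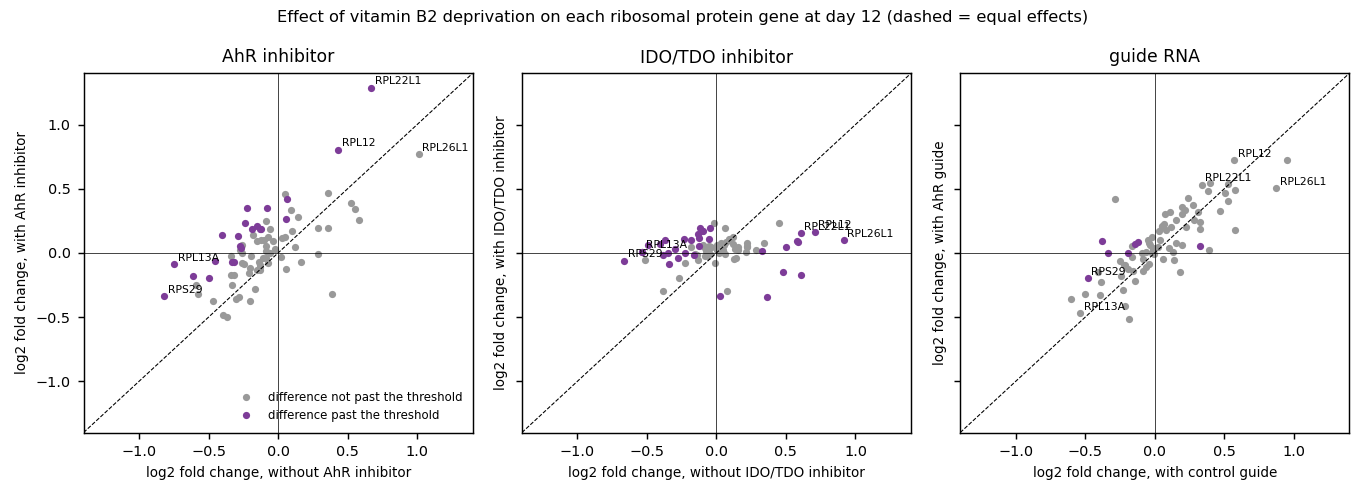
Log2 fold change of each member (deprived over control, day 12) with AhRinh, IDO_TDOinh or AhR_gRNA, on the vertical axis, against that without the agent or with Cont_gRNA, on the horizontal axis, 1 point per member, purple where the difference passed the threshold. With IDO_TDOinh the points lie near 0 on the vertical axis, while with AhR_gRNA they follow the diagonal, with correlations of 0.20 and 0.79.

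With AhRinh, deprivation changed members in both directions, and some of them by other amounts than without the agent. The headers give the libraries with AhRinh another date and directory than those without, so agent and library set cannot be told apart in any comparison across them. Replicate 3 of the controls with AhRinh stood apart from its group (chi-square per gene of 29.3 and 27.6 against its partners, and 7.81 between these). Within the AhRinh libraries 18 members were higher and 14 lower without vitamin B2, against 45.1% and 12.4% of all genes. The split was 20 to 16 after quantile normalization and 3 to 43 after median scaling. Without that replicate the counts were 19 higher and 13 lower. For the difference of effects and for AhRinh in control medium, given next, they were 29 higher and 0 lower and 10 higher and 40 lower. Without deprived replicate 2 with AhRinh the counts were 11 higher and 12 lower. RPL22L1 had 66.7, 69.6 and 73.3 TPM in deprived and 25.9, 25.0 and 33.9 in control cells with AhRinh. It had 37.5, 36.5 and 34.1 TPM in deprived and 21.8, 23.1 and 22.0 in control cells without it. The log2 fold changes were 1.29 ± 0.10 with and 0.67 ± 0.10 without, and their difference 0.62 ± 0.14 (SE, adjusted p = 0.00639). RPL12 rose by 0.80 ± 0.08, RPL26L1 by 0.77 ± 0.17, RPS2 by 0.47 ± 0.10 and RPL19, of the large subunit, by 0.42 ± 0.08. RPS27L (-0.50 ± 0.09), RPS23 (-0.48 ± 0.08), RPL10 (-0.38 ± 0.15, under 200 reads), RPS27 (-0.37 ± 0.09) and RPL15 (-0.36 ± 0.07) fell. The difference of effects was positive for 22 members and negative for 0, against 12.9% and 9.57% of all genes (14 and 5 after quantile normalization). In all, 12 or 13 were called, all positive, without control replicate 2 or 3, deprived replicate 2, or deprived replicate 2 or 3 with AhRinh. It was 0.66 ± 0.10 for RPL13A, 0.57 ± 0.12 for RPLP0, 0.54 ± 0.12 for RPS9 and 0.48 ± 0.10 for RPS29, the last of which was -0.03 after quantile normalization. Between controls, with AhRinh over without, 11 members were higher and 38 lower (all genes 14.6% and 21.3%), from RPL41 at 0.62 to RPL12 at -0.74, across the 2 library sets.

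In control medium, cells labelled AhR_gRNA had lower levels of many members than cells labelled Cont_gRNA. With AhR_gRNA 2 members were higher and 44 of 81 lower, against 23.3% and 13.4% of all genes, with a median of -0.20 for members and 0.06 for all genes. The split was 3 to 44 after quantile normalization and 1 to 54 after median scaling. RPL15 had 59.2, 58.6 and 61.8 TPM with AhR_gRNA and 82.3, 81.2 and 83.9 with Cont_gRNA, a log2 fold change of -0.46 ± 0.05 (SE, adjusted p = 1.29e-05), without overlap. RPS28 (under 200 reads) fell by 0.56 ± 0.17, RPL26 by 0.44 ± 0.05, RPS7 by 0.43 ± 0.09 and RPL4, with a long loop in the peptide tunnel, by 0.42 ± 0.06. The 2 that rose were the paralogs RPL26L1 (0.50 ± 0.12) and RPS27L (0.24 ± 0.06). The fall covered 24 of 42 large-subunit genes, 18 of 31 small-subunit genes, 1 of 3 stalk genes and 1 of 5 paralogs. In the same comparison 0 higher and 9 lower of the 18 translation factors and other TOP mRNA genes were called, among them EEF2 (-0.46) and EIF3E (-0.50), while the mitochondrial ribosome list had 51 higher and 2 lower of 75. The AHR levels of the guides overlap, as given above, so these groups are named by their labels.

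Deprivation in cells labelled AhR_gRNA gave 25 members higher and 13 lower, against 37.6% and 15.6% of all genes, with splits of 34 to 14 after quantile normalization and 12 to 26 after median scaling. RPL12 (0.72 ± 0.05), RPL41 (0.72 ± 0.14), RPL7L1 (0.55 ± 0.08), RPL36 (0.54 ± 0.07) and RPL22L1 (0.53 ± 0.09) led those that rose. RPL10A of the L1 stalk (-0.51 ± 0.08), RPL13A (-0.47 ± 0.06), RPS27L (-0.41 ± 0.06), RPS7 (-0.36 ± 0.09) and RPS15A (-0.33 ± 0.07) led those that fell. The effects with the 2 guides had a Spearman correlation of 0.79 across 81 members and 0.76 across all genes. The difference between them passed the threshold for 6 members in the positive and 1 in the negative direction, against 6.16% and 8.23% of all genes. RPL5 had 626, 624 and 631 TPM in deprived and 598, 649.6 and 636 in control cells with AhR_gRNA. It had 646, 686 and 614 TPM in deprived and 807, 836 and 814 in control cells with Cont_gRNA, a difference of effects of 0.34 ± 0.07 (SE, adjusted p = 0.00447). The deprived and control libraries of RPL5 overlap with AhR_gRNA and do not with Cont_gRNA, where the controls are the higher. RPL15 (0.47 ± 0.07), RPS29 (0.28 ± 0.08) and RPS16 (0.21 ± 0.07) also had positive differences and RPS19, a Diamond-Blackfan anaemia gene, a negative one (-0.27 ± 0.08). Without control replicate 2 or deprived replicate 2 with Cont_gRNA, or control replicate 3 with AhR_gRNA, 4 differences were called.

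Cells given the agent labelled Kyn had lower levels of many members than cells given DMSO. Against DMSO 1 of 81 members was higher and 23 lower, where 6.11% and 5.54% of all genes were called, and the medians were -0.12 for members and 0.02 for all genes. RPL13A had 215, 244 and 250.1 TPM with Kyn and 359, 339 and 331 with DMSO, a log2 fold change of -0.54 ± 0.06 (SE, adjusted p = 8.92e-05), without overlap. RPL3 fell by 0.42 ± 0.07, RPSA, also known as a laminin-binding protein, by 0.40 ± 0.09, and RPS2 by 0.38 ± 0.08. RPL7A fell by 0.34 ± 0.07, RPS29 by 0.25 ± 0.03, RPS6 by 0.23 ± 0.04 and RPL5 by 0.21 ± 0.04. RPL22L1 rose by 0.28 ± 0.07, and RPL26L1 stood at 0.06 ± 0.15. RPS2 thus fell with Kyn and rose without vitamin B2. Its rise was not called in each day 12 experiment after quantile normalization, after median scaling or with voom. The effects of Kyn and of deprivation in the time course had a Spearman correlation of 0.16 over 81 members, against 0.37 for the AhRinh table, 0.31 for the IDO_TDOinh table and 0.15 with Cont_gRNA (all genes 0.11, 0.05, 0.12 and 0.08). Of the 18 translation factors and other TOP mRNA genes 0 higher and 8 lower were called with Kyn, among them NPM1 (-0.61), a nucleolar chaperone, and EEF1B2 (-0.43).

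With AhRinh, Kyn over DMSO called 2 members higher and 11 lower, against 1.74% and 9.1% of all genes, but 5 and 1 after median scaling. RPL7A (-0.48 ± 0.07), RPL13A (-0.35 ± 0.06), the low-read RPS10 (-0.34 ± 0.10), RPS19 (-0.31 ± 0.06) and RPL7L1 (-0.30 ± 0.09) fell. RPS27L (0.24 ± 0.06) and RPL38, needed in mice for translation of Hox mRNAs (0.13 ± 0.03), rose. The difference between the Kyn effects with and without AhRinh was called for 2 members, RPS25, needed by some viral internal ribosome entry sites (0.35 ± 0.08), and RPS29 (0.25 ± 0.05). Both were positive and 0 negative (all genes 2.11% and 6.83%), and median scaling called 19 and 0. Without AhRinh, 15 members were called on leaving out DMSO replicate 1, DMSO replicate 2 or Kyn replicate 1. With it, 3, 6 and 7 were called without replicates 1, 2 and 3 of DMSO and 5 without Kyn replicate 2. The difference of effects was called for 1 member without replicate 3 of DMSO without AhRinh. AhRinh over none in DMSO called 0 members by limma and 0 with voom (all genes 0% and 0%), with 3 at an unadjusted p under 0.05.

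Outside HepG2 few members passed the threshold. In Caco-2 at day 9, 2 of 82 were higher and 10 lower without vitamin B2, against 14.3% and 19.5% of all genes. There were 6 and 6 after quantile normalization, 2 and 2 after median scaling, and 5 in all without deprived replicate 2. RPL22L1 had 87.8, 84.2 and 96.9 TPM in deprived and 63.6, 58.0 and 57.9 in control cells, a log2 fold change of 0.57 ± 0.07 (SE, adjusted p = 1.51e-04), without overlap. RPL21 (under 200 reads in HepG2, and listed on the strand opposite to its RefSeq start) rose by 0.63 ± 0.14. RPS27L fell by 0.32 ± 0.05, RPL15 by 0.26 ± 0.05, RPL34 and RPS6 by 0.19 ± 0.05 and 0.19 ± 0.05 and RPL6 by 0.17 ± 0.05. RPS29, RPL13A and RPL26L1 stood at 0.01 ± 0.05, -0.12 ± 0.05 and 0.11 ± 0.18 and did not pass. The summed level of 5 enterocyte markers was 259 to 299 TPM in deprived and 482 to 531 TPM in control cells, and its part in these values was not tested.

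In mouse hepatocytes with Ad_Cont 6 of 81 members were higher and 0 lower without vitamin B2, against 4.32% and 5.46% of all genes. Rpl31 had 37.4, 38.9 and 37.5 TPM in deprived and 29.3, 29.6 and 27.1 in control cells, a log2 fold change of 0.39 ± 0.08 (SE, adjusted p = 0.00656), without overlap. Among the other 5 were Rpl5 (0.51 ± 0.15) and Rpl11 (0.42 ± 0.13) of the 5S particle, Rpl13 (0.34 ± 0.09) and Rps15a (0.26 ± 0.08). Without control replicate 2 or 3 of the Ad_Cont libraries 1 call was made. RPL5 and RPL11 were higher in deprived HepG2 at day 6 and lower at day 12. The effects in HepG2 at day 12 and in these hepatocytes, labelled 4 weeks, had a Spearman correlation of -0.02 over 79 shared members. The 2 systems were thus compared at unlike times. With Ad_Cre 0 members were called by limma (all genes 0.214% and 0.115%) and 0 with voom, with 3 at an unadjusted p under 0.05. The difference of effects with Ad_Cre and Ad_Cont was called for 1 member without deprived replicate 1 with Ad_Cont or control replicate 3 with Ad_Cre. With all libraries it was called for 0 members by limma (all genes 0.181% and 0.0658%) and 0 with voom, with 11 at an unadjusted p under 0.05. Ad_Cre over Ad_Cont with the vitamin called 0 by limma (all genes 0.0165% and 0.00823%) and 0 with voom, with 5 at an unadjusted p under 0.05.

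In liver 0 of 81 members were called by limma, against 2.25% of all genes higher and 1.16% lower, and 0 with voom. At an unadjusted p under 0.05 there were 19 members. The share of all genes at that limit is not given, so this number does not show whether members stand apart. Without deficient column 4, 1 member was called. The median log2 fold change was 0.22 for members and 0.14 for all genes, and 0.06 and -0.01 after median scaling. Rpl10a, which had the highest fold change, stood at 6.82, 11.2, 21.5 and 11.5 TPM in deficient and 6.35, 9.72, 4.76 and 4.75 in control livers, a log2 fold change of 0.84 ± 0.32 (adjusted p = 0.146), and the groups overlap. Standard errors of the members in liver ranged from 0.106 to 0.453, against 0.0348 to 0.247 at day 12 in the HepG2 time course.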

How the data were processed

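Libraries were made with QuantSeq, a kit that reads the 3′ ends of poly(A) transcripts, per the labels' protocols. The deposited values are TPM, 1 transcript per gene, written by HOMER per the file headers. The submitters' processing notes name Bowtie2, HOMER, STAR, hg38 and mm10, without versions or roles. Since TPM is not a count, the count test planned for the case of deposited counts was not used as the main test. The deposited TPM steps gave whole reads (100% within 0.1, over values of at most 20 reads and transcripts of at most 3000 bases), which gave the depths and the reads for voom. TPM divides by transcript length, which suits full-length libraries and not 3′ tags, so levels were not compared between genes.

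Groups came from the labels (100 samples, 32 groups, 98 columns in 8 tables). The 8 liver columns name the group and not the animal among 10 labelled samples, so 2 of these are not analysed here. In each table limma 3.58.1 (R 4.3.3) was fitted to log2(TPM + 1) with a mean per group, trend and robust empirical Bayes, over 10820 to 12488 genes with TPM of at least 1 in 3 libraries (4 in liver). Tests were two-sided, over 29 contrasts, with Benjamini-Hochberg adjustment over all genes tested in a table and a threshold of 0.05. Fold changes on this scale understate the change of low genes. Standard errors are limma's moderated ones. Tested on simulated data for the day 12 comparison of the time course (14130 genes, fewer filtered), the fit called 46.3% of 1.5-fold, 97.0% of 2-fold and 100% of 3-fold changes, and 4 of 13930 unchanged genes. Changed genes were drawn above a read limit. All simulated counts shared a fixed dispersion, and libraries differed in depth only. These rates thus need not hold for low-read members or for the spread of the real libraries.

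Alternatives were quantile normalization, scaling of libraries to a common median, pseudocounts of 0.1 and 5, no filter, the replicate number as a block, voom on recovered reads, and leaving out each library. Voom used library sizes scaled to equal medians of log2 reads, so it shares the assumption of median scaling. The members and lists were chosen with earlier results of these data known. Genes named in a comparison are the 5 highest and 5 lowest past the threshold, the paralogs, the stalk genes, RPSA, RPL5, RPL11 and RPS6, and 2 per direction of other lists; genes named for a repeated direction, for their promoter or to set beside these were chosen after their values were seen. Of the genes this rule picks, 2 are counted but not reported by name here. Pseudogenes came from GENCODE release 29 and starts from RefSeq (GRCh38.p14).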

Additional observations from a re-analysis of the deposited data

Results flagged for a closer look

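In deficient livers Rpl22l1 had 40.2 TPM in 1 column and 21.5, 22.5 and 23.6 TPM in the others, and the members' share of reads was 0.946% in 1 column and 0.720% to 0.749% in the others. Each gap, as a part of its group's range, exceeds Dixon's critical value for 4 samples, among 28 liver values examined in this way, 2 of which were singled out. Chance flags about 1 in 20 groups.

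The change from day 3 to day 12 differed between deprived and control HepG2 cells for 23 members by limma's interaction test. Deprived minus control, on the log2 scale, the difference was -0.73 for RPL13A, -0.69 for RPS29, -0.45 for RPL15, -0.41 for RPL5, -0.40 for RPL27A and -0.37 for RPL11, and 0.51 for RPL12, 0.53 for RPS18, 0.60 for RPL17 and 0.83 for RPL26L1.

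The effect of deprivation differed with and without AhRinh for 22 members by the same test, across libraries with 2 dates in their headers. With minus without, it was 0.30 for RPL11, 0.38 for RPLP2, 0.48 for RPS29, 0.54 for RPS9, 0.57 for RPLP0, 0.62 for RPL22L1 and 0.66 for RPL13A.

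With minus without IDO_TDOinh, the effect differed for 34 members. It was -0.82 for RPL26L1, -0.78 for RPS26, -0.71 for RPL36A, -0.63 for RPL41, -0.54 for RPL12, -0.49 for RPL7L1 and -0.45 for RPL22L1. It was 0.22 for RPL5, 0.26 for RPS27L, 0.47 for RPS15A, 0.47 for RPL11, 0.54 for RPL27A, 0.54 for RPL13A, 0.56 for RPS7 and 0.61 for RPS29.

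Between cells labelled AhR_gRNA and Cont_gRNA the effect of deprivation differed for 7 members, with -0.27 for RPS19, 0.21 for RPS16, 0.28 for RPS29, 0.34 for RPL5 and 0.47 for RPL15. Between cells with and without AhRinh the effect of Kyn differed for 2 members, with 0.25 for RPS29 and 0.35 for RPS25. The differences of RPS29 in these 5 comparisons were not past the threshold after quantile normalization.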

How the results depend on the processing

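Counts are members called higher and lower. Shares of all genes called, here and above, are given for the main fit only. Counts under other settings thus show how the calls of the members depend on processing, not whether the members stand apart from other genes. Numbers at an unadjusted p under 0.05 are likewise given for members only. Median scaling gave 0 and 1 at day 3 (1 call in all), 8 and 26 at day 12 (34), 2 and 2 in Caco-2 (4), 4 and 60 in the AhRinh table without the agent (64) and 3 and 43 with it (46), 13 for the AhRinh difference, 9 and 43 with Cont_gRNA (52), 12 and 26 with AhR_gRNA (38), 5 and 1 for Kyn with AhRinh (6) and 19 for the Kyn difference. Quantile normalization gave 4 and 1 at day 3 (5), 14 and 21 for the difference of the time effects (35), and 27 and 26 in the IDO_TDOinh table (53). Without a filter the calls were 0 at day 3, 3 for the guide difference, 0 and 15 for Kyn (15), 1 and 7 for Kyn with AhRinh (8), 1 for the Kyn difference and 2 in hepatocytes with Ad_Cont. Voom on recovered reads gave 6 and 38 at day 12 (44), where lower calls then outnumbered higher ones, 3 and 2 in Caco-2 (5), 3 and 52 with AhRinh (55), 51 and 1 for the IDO_TDOinh difference (52), 9 and 46 with Cont_gRNA (55), 14 and 29 with AhR_gRNA (43), 16 for the guide difference, 1 and 38 for Kyn (39), 5 and 3 for Kyn with AhRinh (8), 26 for the Kyn difference and 11 in hepatocytes with Ad_Cont. The cause was not tested.

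Same-numbered replicates showed little shared deviation (correlation over 0.1 in at most 1 pair of a table, the highest 0.19). How replicates were made is not given, so these correlations cannot tell whether equal numbers mark shared handling. With the replicate number as a block Caco-2 gave 2 higher and 6 lower (8), and of 246 results for named genes 8 were no longer called. No paired analysis was possible for liver because its columns carry no replicate numbers.

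For members called alike in all 4 day 12 experiments, settings were chosen after seeing the data: quantile normalization gave 15 higher and 15 lower (30), voom 1 and 31 (32), median scaling 1 and 23, the other settings 6 higher and 9 to 11 lower, and leaving out 1 library 15 to 17 in all. Leaving out 1 library gave 0 to 2 calls at day 3, 29 to 33 at day 12, 5 to 16 in Caco-2, 22 to 32 with AhRinh, 12 to 29 for the AhRinh difference, 29 to 43 in the IDO_TDOinh table, 4 to 8 for the guide difference, 15 to 20 for Kyn, 3 to 14 for Kyn with AhRinh, 1 to 3 for the Kyn difference, 1 to 6 in hepatocytes with Ad_Cont, 0 to 1 for the hepatocyte difference and 0 to 1 in liver.

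Of the 246 named results 41 kept the direction but not the call under median scaling, 51 under quantile normalization, 24 without a filter, 39 with voom, 0 at the smaller pseudocount and 2 at the larger; of 1722 values with 1 library left out 158 lost the call and 0 turned. Signs that turned were those of RPS21 at day 6 (0.036), RPS29 (0.042) and RPS6 (0.11) at day 9, RPLP2 (-0.24) and RPLP1 (-0.010) over time in controls, RPLP2 over time in deprived cells (-0.025), RPLP2 in the AhRinh table (0.19) and RPS29 in the AhRinh difference (-0.034) under quantile normalization; RPLP1 at day 12 (-0.014), RPL13A over time in deprived cells (0.020) and RPLP2 with AhRinh (-0.15) with voom; and RPLP2 with AhRinh (-0.11) under median scaling. Calls lost without 1 library included RPL13A and RPL17 at day 3, RPL11, RPL22L1, RPL5, RPL9, RPS21 and RPS29 at day 6, RPL7L1, RPS26 and RPS6 at day 9, RPL7L1 and RPLP1 at day 12, and RPL5, RPL6 and RPS6 in Caco-2. Genes under 200 reads, with standard errors of up to 0.247 at day 12, are limited by depth.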
